A study of Mus musculus with 2 samples.

Results

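The Sox genes described here are 10 members of the Sox family of transcription factors, Sox4, Sox5, Sox6, Sox7, Sox8, Sox9, Sox11, Sox12, Sox13 and Sox15, taken by name from 69691 measured gene features. All 10 were found in the gene and transcript tables of both libraries. The samples were kidneys of newborn mice of the strain B6NCrl on the day of birth (P0, age 0 days). Each library was made from both kidneys of 1 pup, using 10 ng of total RNA longer than 200 nt to which spike-in RNA had been added. The only group had 2 pups of the same mother. No treatment, altered gene or control group was part of the design, and the sex of the pups was not collected. Values are therefore given per pup, as mean ± SD (n = 2 littermates), with no p-value, and the SD holds no variation between litters. The libraries held 41584961 expected counts in pup 1 and 48823952 in pup 2.

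Sox proteins bind DNA through an HMG box, a short domain related to that of the sex-determining factor SRY, which lies in the minor groove, bends the DNA and reads short A- and T-rich sites. The family is divided into lettered groups by the sequence of this box. SoxC factors (Sox4, Sox11, Sox12) activate transcription in many progenitor cells, SoxD factors (Sox5, Sox6, Sox13) pair through coiled coils and have no activation domain of their own, and SoxE factors (Sox8, Sox9) activate transcription in cartilage, testis, glia and other tissues. SoxF factors, among them Sox7, act in blood vessels, and Sox15 is the only mouse gene of group SoxG. In the developing kidney Sox9 and Sox8 act in the branching tips of the ureteric bud, and Sox4 and Sox11 act in nephron formation.

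The members are shown first by the start of the HMG box, the stretch that all of them share. The 27 bases below code for the first 9 codons of the conserved box core. They were cut from GENCODE transcripts (GRCm38, sense strand) and lower case marks a base shared with Sox9, while capitals mark a base that differs from it.
Sox4 (chr13:28952815-28952841, minus strand, exon 1 of 1, box from codon 61 of 440): cgGcccatgaacgccttTatggtgtgg
Sox11 (chr12:27342232-27342258, minus strand, exon 1 of 1, codon 51 of 395): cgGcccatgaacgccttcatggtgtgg
Sox12 (chr2:152397549-152397575, minus strand, exon 1 of 1, codon 42 of 314): cgGccGatgaacgcGttcatggtgtgg
Sox9 (chr11:112782903-112782929, plus strand, exon 1 of 3, codon 107 of 507): cgacccatgaacgccttcatggtgtgg
Sox8 (chr17:25570196-25570222, minus strand, exon 1 of 3, codon 101 of 464): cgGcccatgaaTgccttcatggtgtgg
Sox5 (chr6:143841247-143841273, minus strand, exon 13 of 15, codon 558 of 763): cgTccAatgaaTgccttcatggtgtgg
Sox6 (chr7:115489736-115489762, minus strand, exon 14 of 16, codon 580 of 785): cgaccAatgaaTgcGttcatggtTtgg
Sox13 (chr1:133385539-133385565, minus strand, exon 12 of 14, codon 418 of 613): AgacccatgaaTgccttcatggtgtgg
Sox7 (chr14:63943894-63943920, plus strand, exon 1 of 2, codon 47 of 380): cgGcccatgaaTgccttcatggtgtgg
Sox15 (chr11:69655517-69655543, plus strand, exon 1 of 2, codon 49 of 231): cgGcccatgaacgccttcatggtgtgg

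No member differed from Sox9 at more than 4 of the 27 bases, the 4 being those of Sox6. Sox11 and Sox15, of different groups, were identical over this stretch, and so were Sox7 and Sox8. The position of the box set the SoxD members plainly apart from the rest. It began at codon 107 or earlier in SoxC, SoxE, SoxF and SoxG members. In the 3 SoxD members, whose long N-terminal part holds the coiled coils, it began at codon 418 or later. Over 210 bases (70 codons) from the same start, the 7 pairs within a group shared 81.9% to 91.0% of bases with a median of 85.2%. The 38 pairs across groups shared 52.9% to 77.6% with a median of 64.5%. Sox4 and Sox11 were the closest pair, with a longest identical run of 48 bases, and Sox6 and Sox8 were the farthest apart. Since sequences this close could send a read to the wrong gene, every stretch of 50 bases in each member's transcripts was searched in all other genes. On the same strand, 8 members shared no stretch with another gene, Sox5 shared 0.151% and Sox7 shared 0.0615%, and no Sox gene was among the genes they shared with. On the opposite strand, Sox4 shared 54.1%, Sox8 8.99%, Sox5 8.96% and Sox7 0.0308%, and the other members shared none.

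**Figure D1:**
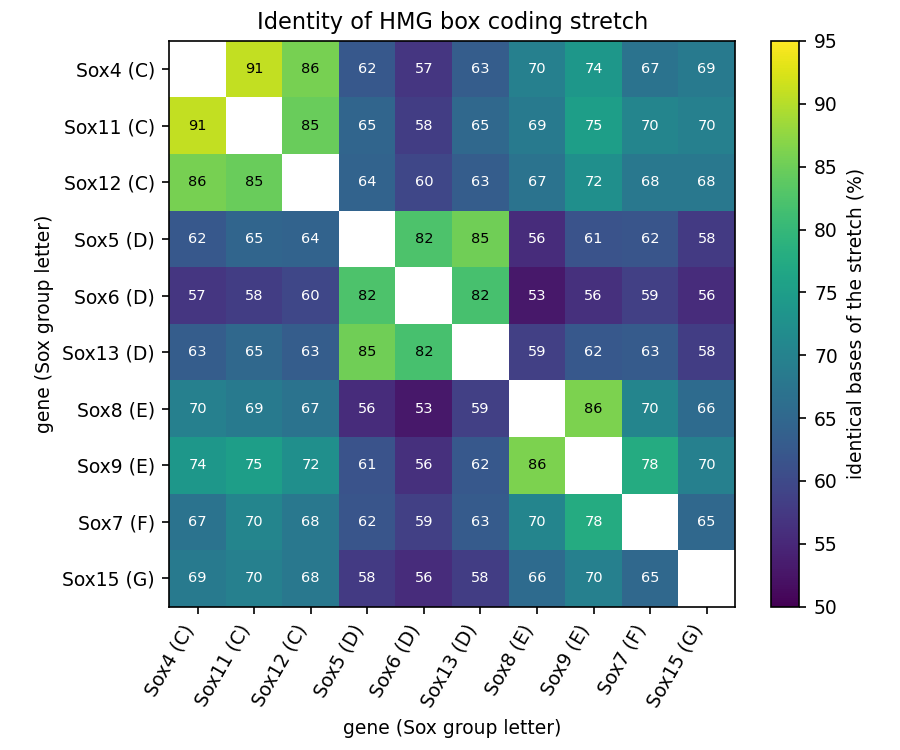
Each square gives the share of identical bases (%) between 2 Sox genes over 210 bases of coding sequence from the start of the conserved HMG box core, with the Sox group letter after each gene. The 7 pairs within a group lie at 81.9% to 91.0%, and the 38 pairs across groups at 52.9% to 77.6%.

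Levels are given as TPM, the abundance of transcripts on a scale with the same total in each library. TPM divides reads by transcript length and so can be compared between genes. In whole kidney RNA a gene active in few cells and a gene weakly active in many cannot be told apart. A gene counted as detected when each pup had 1 TPM or more. By that measure 9 of the 10 Sox genes were detected, beside 61.5% of 21474 protein-coding genes. The median of the 10 was 6.63 TPM, and that of all protein-coding genes 4.73 TPM. Among detected genes only, the median of the 9 Sox genes was 7.09 TPM and that of 13214 protein-coding genes 17.8 TPM. The levels of 6 of these 9 lay below that last median, and those of Sox4, Sox11 and Sox9 above it.

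**Figure D2:**
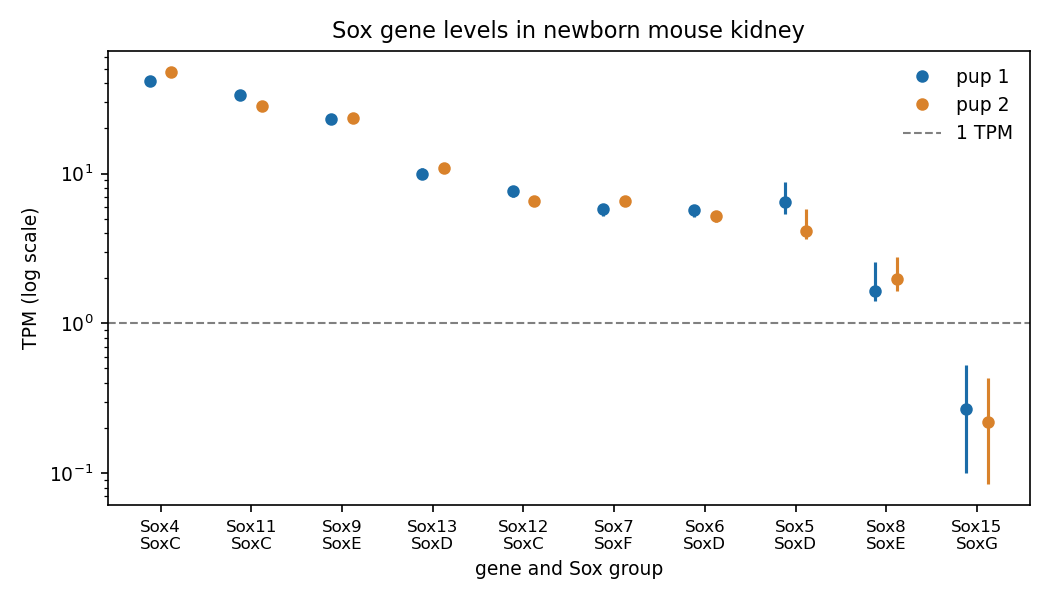
Points give the TPM (log scale) of each Sox gene in pup 1 and pup 2, bars the TPM interval in the authors' deposited table, and the dashed line marks 1 TPM. Sox4, Sox11 and Sox9 stand above 20 TPM in both pups, Sox13 to Sox5 lie between 4.13 and 10.95 TPM, Sox8 lies under 2 TPM, and Sox15 is below the line.

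Within the 10 members, the SoxC genes held most of the TPM. Together Sox4, Sox11 and Sox12 gave 82.9 TPM in pup 1 and 82.2 TPM in pup 2, which was 61.1% of the summed TPM of the 10 members in each pup. The 10 Sox genes outside the set summed to 88.6 and 99.0 TPM, nearly all of it from Sox17 and Sox18, which are given beside Sox7. Sox4, an activator that acts in progenitor survival and differentiation in many organs, was the highest member. It is a gene of 1 exon on the minus strand at chr13:28948919-28953713. Its level was 41.65 TPM in pup 1 and 47.40 TPM in pup 2 (44.5 ± 4.07), at the 84.0th percentile of protein-coding genes. The authors' deposited TPM interval ran from 39.5 to 42.2 in pup 1 and from 45.3 to 48.0 in pup 2, so the intervals of the pups did not overlap. The level of that interval is not given in the sources used here, and it covers counting and read assignment only.

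Sox4 was the only member whose reads were shared with another gene by more than 1 count, as the deposited posterior SD of the count was 0 in both pups for 8 members and 0.5 in pup 1 for Sox5. The lincRNA gene Gm26735 lies on the opposite strand at chr13:28943048-28951671 and shares 2753 nt of the 4795 nt of Sox4, and 54.1% of the 50-base stretches of Sox4 also occur in Gm26735 read backwards. The expected counts of Sox4 were not whole, at 5801.82 in pup 1 and 8122.29 in pup 2. Those of Gm26735 were 1106.18 and 891.71, and the sums of both genes were whole numbers, 6908 and 9014. The deposited posterior SD of the count was the same for both genes, 65.5 counts in pup 1 and 77.6 in pup 2. Of the summed counts, Sox4 was given 84.0% in pup 1 and 90.1% in pup 2. The level of Gm26735 itself was 14.63 and 9.58 TPM (12.1 ± 3.57). Both levels thus rest in part on how the authors' model divided shared reads, and whether counting took account of strand is not given in the sources used here.

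Sox11, a close relative of Sox4 with an overlapping role, is also a gene of 1 exon, at chr12:27334264-27342574 on the minus strand. It reached 33.64 TPM in pup 1 and 28.25 TPM in pup 2 (30.9 ± 3.81). By counts it was the best measured member, with 8193 and 8464 expected counts over a transcript of 8311 nt. Sox11 was therefore higher than Sox4 by reads and lower by TPM in both pups, although in pup 2 the summed 9014 counts of Sox4 and Gm26735 exceeded it. Sox12, the weakest activator of the group, stood at 7.61 and 6.56 TPM (7.09 ± 0.742). It has 2 transcripts with the same coding length of 942 nt, and the unspliced Sox12-202 took 71.05% of its TPM in pup 1 and 94.00% in pup 2. The spliced Sox12-201 took the other 28.95% and 6.00%, and its deposited TPM intervals, 0.570 to 3.50 and 0.0195 to 1.49, overlapped between the pups.

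Promoter sequence was taken from RefSeq (GRCm38.p6), which matched 8 of the 10 members, without Sox7 and Sox9. The 100 bases before the RefSeq start are shown for the 3 SoxC genes, which include the 2 highest members, and for Sox15, the lowest. Capitals mark matches on either strand to CCAAT (read backwards ATTGG), the letters bound by NF-Y, or to GGGCGG (read backwards CCGCCC), the letters bound by Sp1.
Sox4 (chr13:28953700-28953799, minus strand): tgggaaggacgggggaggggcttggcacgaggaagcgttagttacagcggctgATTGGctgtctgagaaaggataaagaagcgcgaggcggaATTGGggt
Sox11 (chr12:27342719-27342818, minus strand): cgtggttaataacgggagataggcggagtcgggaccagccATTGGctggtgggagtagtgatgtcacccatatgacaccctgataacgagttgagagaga
Sox12 (chr2:152398047-152398146, minus strand): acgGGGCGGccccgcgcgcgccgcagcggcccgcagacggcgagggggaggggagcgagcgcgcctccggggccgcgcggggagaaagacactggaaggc
Sox15 (chr11:69654937-69655036, plus strand): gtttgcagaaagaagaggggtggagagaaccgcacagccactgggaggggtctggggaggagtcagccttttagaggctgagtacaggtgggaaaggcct

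The RefSeq start lay 14 nt from the GENCODE start of Sox4, 144 nt from that of Sox11 and 277 nt from that of Sox15. For Sox12 it was the start of Sox12-201. The last bases of the Sox4 window, with its last ATTGG, thus lie inside the Sox4 span given above. Those of the Sox12 window lie inside Sox12-202. Over the full 250 bases before the RefSeq start, Sox4 held 4 CCAAT matches, and Sox11 and Sox12 held 1 each. GGGCGG occurred 2 times for Sox11, 3 times for Sox12 and not at all for Sox4. Sox15 held neither. Of all 32851 RefSeq promoter windows of that length, 33.8% held CCAAT and 32.7% held GGGCGG, so a match is common and is given as a description of sequence only. The SoxC windows differed widely in base composition. Sox12 had 74.4% G and C with 35 CpG, Sox11 had 58.0% with 17 CpG, and Sox4 had 50.8% with 11 CpG, beside medians of 52.4% and 6 CpG over all windows. The window of Sox15 had 55.6% G and C and 5 CpG.

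The SoxE genes were 1 high and 1 low member. Sox9, a driver of cartilage, testis and ureteric tip programmes, lies at chr11:112782224-112787760 on the plus strand with 3 exons and 1 transcript. It had 23.05 TPM in pup 1 and 23.38 TPM in pup 2 (23.2 ± 0.233), the smallest ratio between the pups among the members by TPM, on 2759 and 3443 expected counts. Sox8, which can stand in for Sox9 in several tissues, lies at chr17:25565892-25570686 on the minus strand. It had 1.65 and 1.98 TPM (1.82 ± 0.233), on 123 and 167 counts. Its full transcript Sox8-201 (1392 coding nt) took 81.37% and 71.62% of its TPM. The shorter Sox8-202 (663 coding nt) took 18.63% and 28.38%, on 7.55 and 16.99 counts. The deposited TPM intervals of Sox8-202 were 6.95e-06 to 0.808 and 0.0222 to 1.04, so this split is poorly fixed. The antisense gene 2810468N07Rik overlaps 329 nt of Sox8 on the opposite strand and had 3.96 and 3.99 TPM, higher than Sox8 in both pups. The counts of both genes were whole in each pup, so no read was shown as divided between them.

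Sox9 and Sox8 are known to act with the Ret pathway in the tips of the ureteric bud, and all 6 genes of a list of that programme were detected, with a median of 35.2 TPM. The GDNF co-receptor gene Gfra1 was highest at 44.52 and 43.96 TPM, followed by the transcription factor gene Etv5 at 38.35 and 36.48 TPM. The receptor tyrosine kinase gene Ret was lowest at 5.65 and 6.08 TPM. Of 12 genes of the cartilage programme that Sox9 drives with Sox5 and Sox6, 8 were detected, with a median of 2.18 TPM. At 1 TPM in both pups, 61.5% of all protein-coding genes were detected. Col2a1, the main cartilage collagen, had 13.68 and 11.79 TPM, Col9a1 had 5.21 and 4.39 TPM, and the matrilin gene Matn3 was lowest at 0.05 and 0.03 TPM.

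The SoxD genes shared a level of about 4 to 11 TPM but differed in how much of it could code for protein. Sox13, a SoxD factor studied in lymphocytes and arteries, lies at chr1:133382303-133424377 on the minus strand. It had 9.88 TPM in pup 1 and 10.95 TPM in pup 2 (10.4 ± 0.757). Sox13-205, with 1839 coding nt, held 45.55% and 53.63% of that TPM, and Sox13-203, which begins at an inner start and codes for 1512 nt, held 41.31% and 29.07%. The retained intron Sox13-204 held 13.14% and 17.30%. The 4 Sox13 transcripts that hold the whole 210-base stretch from the box start summed to 8.58 and 9.05 TPM.

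Sox6, which acts with Sox9 in cartilage and silences embryonic globin in red cells, spans 567.925 kb at chr7:115470872-116038796 on the minus strand. Its level was 5.69 TPM in pup 1 and 5.20 TPM in pup 2 (5.45 ± 0.346). Its 5 transcripts all hold the whole 210-base stretch of the box and begin at different places. Sox6-203 was the leading transcript by TPM, with 54.99% and 38.65%, but it is only 2825 nt long and took 31.2% and 19.7% of the gene's counts. By counts the long Sox6-204 led in pup 1 with 42.0% and held 27.3% in pup 2, where the long Sox6-202 led with 33.0% after 16.1% in pup 1. Sox6-205 held 10.6% and 20.0% of counts. The leading Sox6 transcript was thus different by TPM and by counts, and by counts also between the pups.

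The starts of Sox6-204, Sox6-202 and Sox6-205 each matched a RefSeq start exactly. The 100 bases before each are shown to describe the sequence before starts that lie far apart; the Sox6 transcripts also differ in length and in their other end, and Sox6-203 is not shown. Capitals here mark ACAAAG (read backwards CTTTGT) or ACAATG (read backwards CATTGT), letters of the kind that Sox boxes bind, or GGGCGG or CCAAT as above.
Sox6-204 (chr7:116038745-116038844, minus strand): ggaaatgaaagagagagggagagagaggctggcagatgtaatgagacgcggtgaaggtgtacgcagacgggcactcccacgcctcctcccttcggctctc
Sox6-202 (chr7:116031048-116031147, minus strand): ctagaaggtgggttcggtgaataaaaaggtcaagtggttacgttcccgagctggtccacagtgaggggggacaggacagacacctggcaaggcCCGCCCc
Sox6-205 (chr7:115824711-115824810, minus strand): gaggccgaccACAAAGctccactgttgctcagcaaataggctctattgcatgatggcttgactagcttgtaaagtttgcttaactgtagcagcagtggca

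The window of Sox6-202 had 60.8% G and C and 10 CpG, with 4 GGGCGG matches in 250 bases. That of Sox6-204 had 45.2% and 9 CpG, and that of Sox6-205 41.6% and 2 CpG. ACAAAG occurred 1 time each before Sox6-204 and Sox6-202 and 2 times before Sox6-205, which also held 1 ACAATG. Of all promoter windows 16.5% held ACAAAG and 10.7% held ACAATG. The antisense gene Sox6os, which lies within the Sox6 span, had 0.63 and 0.60 TPM. Of 5 genes of the globin switch on which Sox6 acts in red cells, the adult genes Hbb-bs (1165.21 and 1204.21 TPM) and Hbb-bt (511.41 and 492.16 TPM) were detected. The embryonic gene Hbb-bh1 was lowest, at 0 and 0.05 TPM.

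Sox5, the partner of Sox6 in cartilage, spans 953.553 kb at chr6:143828425-144781977 on the minus strand, and its level differed between TPM and counts. The deposited TPM was 6.43 in pup 1 and 4.13 in pup 2 (5.28 ± 1.63), a ratio of 1.56 and the largest ratio between the pups among the members. The counts showed no such gap, with 390 and 439 expected counts, or 9.38 and 8.99 CPM (counts scaled to the total of the library). The effective length that divides them was 2044 nt in pup 1 and 2915 nt in pup 2. Much of this came from 1 short transcript: Sox5-208, a non-coding model of 351 nt, was given 38.71% of the Sox5 TPM in pup 1 on 18.6 counts and 8.46% in pup 2 on 3.21 counts. Without Sox5-208 the gene had 3.94 and 3.79 TPM (3.87 ± 0.106), a choice made after its values were seen.

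Little of the Sox5 TPM came from transcripts that can make the DNA-binding protein. Of 14 Sox5 transcripts, 5 hold the whole 210-base stretch of the box. These summed to 1.14 TPM in pup 1 and 1.06 TPM in pup 2 (1.10 ± 0.0566), or 17.69% and 25.53% of the gene's TPM. They are long, so they held 60.8% and 61.0% of its counts. The stretch was searched in GENCODE M21 models, where Sox5-205 has 3879 nt and Sox5-202 has 2526 nt. The deposited TPM rests on models of 7069 and 7071 nt for these 2 transcripts. The 7 non-coding models held 33.6% and 33.4% of counts, and among them the retained intron Sox5-209 had 13.36% and 23.52% of TPM. Sox5-207, another retained intron, had 7.53% and 11.81%. Sox5-211, a partial coding model without that stretch, had 19.89% and 28.61%. Among the 5 with the whole stretch, Sox5-205 led with 0.79 and 0.86 TPM. Its deposited interval in pup 2, 0.0332 to 0.752, lay below its own TPM, so this share is poorly fixed. By the transcripts that hold the whole stretch, Sox5 (1.14 and 1.06 TPM) lay below Sox8 (1.65 and 1.98 TPM) in both pups. By gene TPM Sox5 lay above Sox8. The genes annotated within the long Sox5 span, Sox5os1, Sox5os2, Sox5os3, Sox5os4, Sox5os5 and Sox5it, had at most 0.1 TPM and 2 counts in either pup. Gm44068 within Sox5 and Gm45025 within Sox6 had no entry among the measured genes, so no level can be given.

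**Figure D3:**
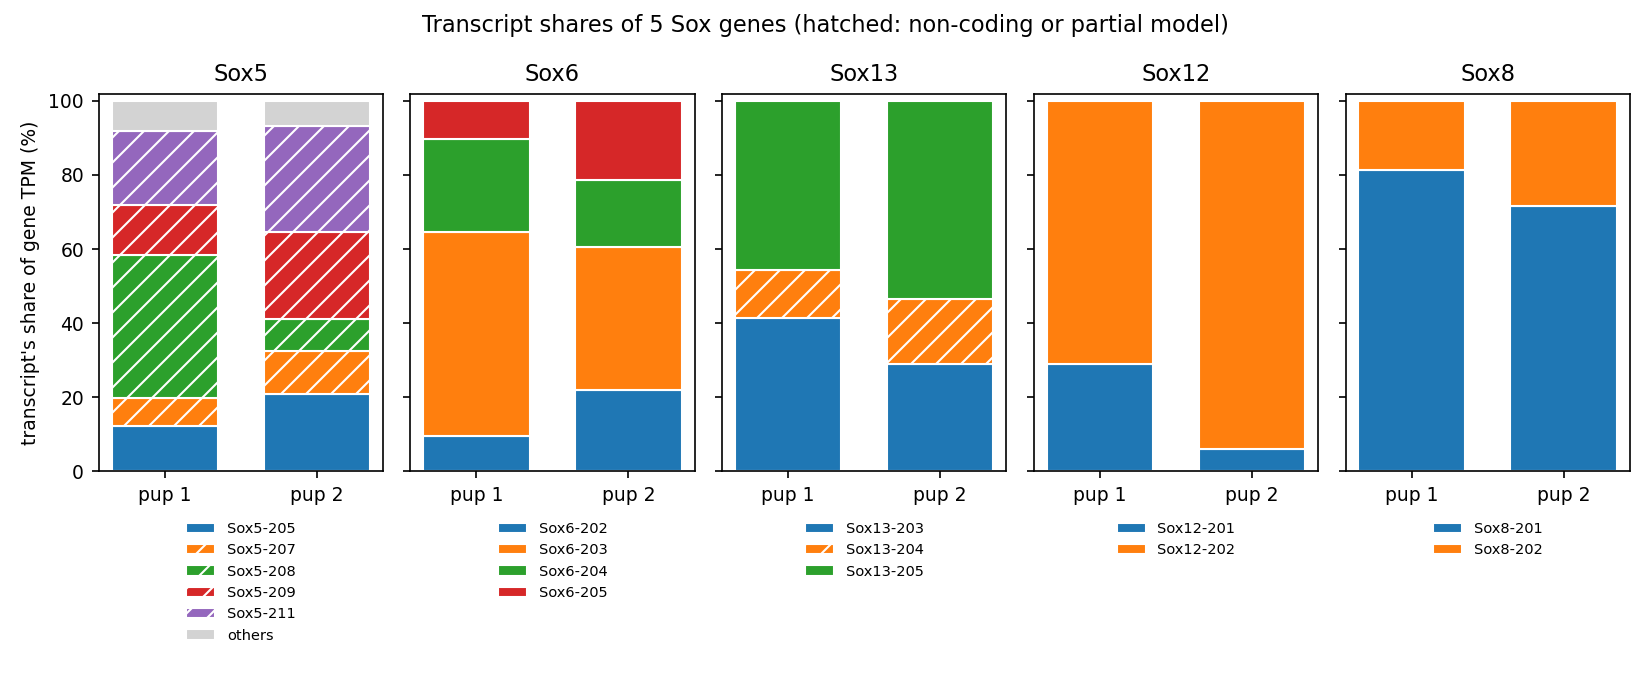
Stacked bars give each transcript's share of its gene's TPM (%) in pup 1 and pup 2 for the 5 Sox genes with several transcripts, with non-coding or partial models hatched and the Sox5 transcripts under 10% in both pups summed as others. In Sox5 the hatched models take most of the TPM in both pups, and Sox5-208 takes 38.71% in pup 1 and 8.46% in pup 2.

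Sox7, a SoxF factor of blood vessel endothelium, lies at chr14:63943673-63950732 on the plus strand with 2 exons. It had 5.77 TPM in pup 1 and 6.58 TPM in pup 2 (6.18 ± 0.573), on 547 and 768 counts. The other SoxF genes, Sox17 and Sox18, lie outside the 10 and were several-fold higher. Sox17 had 41.52 and 48.91 TPM and Sox18 had 46.64 and 49.67 TPM, so that Sox18 exceeded Sox4 in both pups by deposited TPM. Sox4 was given 5801.82 and 8122.29 of the 6908 and 9014 counts summed with Gm26735. With another division of these reads its order with Sox18 could change. Sox17 and Sox18 were the only detected genes of 10 other Sox genes measured. The lowest, Sry, had 0 in both libraries, where a count of 0 allows up to 3 counts (0.0721 and 0.0614 CPM). All 6 endothelial markers were detected and summed to 391.07 and 391.31 TPM. Sox15, known from muscle and trophoblast, lies at chr11:69655314-69656727 on the plus strand and was not detected. It had 0.27 and 0.22 TPM (0.245 ± 0.0354) on 6 counts in each pup. The highly expressed gene Mpdu1 (70.49 and 65.81 TPM) overlaps its last 31 nt on the opposite strand.

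Set in order of mean TPM, the members ran Sox4, Sox11, Sox9, Sox13, Sox12, Sox7, Sox6, Sox5, Sox8 and Sox15. The ranges of the pups did not overlap for 7 of the 9 neighbouring pairs. Sox12 and Sox7 overlapped (6.56 TPM for Sox12 and 6.58 TPM for Sox7 in pup 2), as did Sox6 and Sox5. Sox7 and Sox6 were apart only by the distance from 5.77 to 5.69 TPM. Over all 45 pairs of members, 42 did not overlap, beside 95.8% of 87298291 pairs of detected protein-coding genes. Among the 9 detected members 33 of 36 pairs were apart. The SoxE sum was 24.7 and 25.4 TPM and the SoxD sum 22.0 and 20.3 TPM, and these ranges did not overlap. The 10 members summed to 135.64 and 134.65 TPM (135 ± 0.700).

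The littermates were compared by counts, as the log2 ratio of pup 2 to pup 1 after TMM scaling with 0.1 CPM added, and with an exact binomial interval of 95% that covers counting error only. None of the 9 Sox genes with at least 50 counts was past 2-fold, beside 0.587% of 15150 genes, and none was past 1.5-fold, beside 2.57%. The median size of the log2 ratio was 0.16 over the 9 members and 0.10 over all genes, whose 95th percentile was 0.44. Sox7 (0.28, interval 0.12 to 0.44) and Sox4 (0.28, 0.23 to 0.33) were farthest towards pup 2, and Sox11 (-0.16, -0.20 to -0.12) farthest towards pup 1. The interval left out 0 for 5 of the 9: Sox4, Sox7, Sox13 (0.21, 0.08 to 0.34), Sox9 (0.11, 0.04 to 0.19) and Sox11. It did so for 40.3% of the 15150 genes. With 1 library for each pup, an interval of counting error does not show that the animals differ.

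Read assignment, or TPM in place of counts, moved some of these ratios as far as the pups did. Counts of Sox4 and Gm26735 summed gave 0.18 (0.13 to 0.22) in place of 0.28, an alternative added after the data were seen, and Gm26735 alone gave -0.51 (-0.65 to -0.39). By TPM, ratios of all genes lay a median of 0.09 below those of counts, and beyond that shift Sox5 lay a further 0.50 below. A gap of that size or larger occurred in 0.502% of genes, and the 95th percentile was 0.17. The log2 ratio of Sox5 was -0.03 (-0.24 to 0.17) by counts and -0.63 by TPM. That of Sox6 was 0.12 (-0.02 to 0.25) by counts and -0.13 by TPM. The Sox6 gap of -0.25 includes the median shift of -0.09 over all genes. Sox12 (-0.10, -0.23 to 0.03) and Sox8 (0.23, -0.11 to 0.58) had intervals that held 0, and Sox15 was too low to compare.

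**Figure D4:**
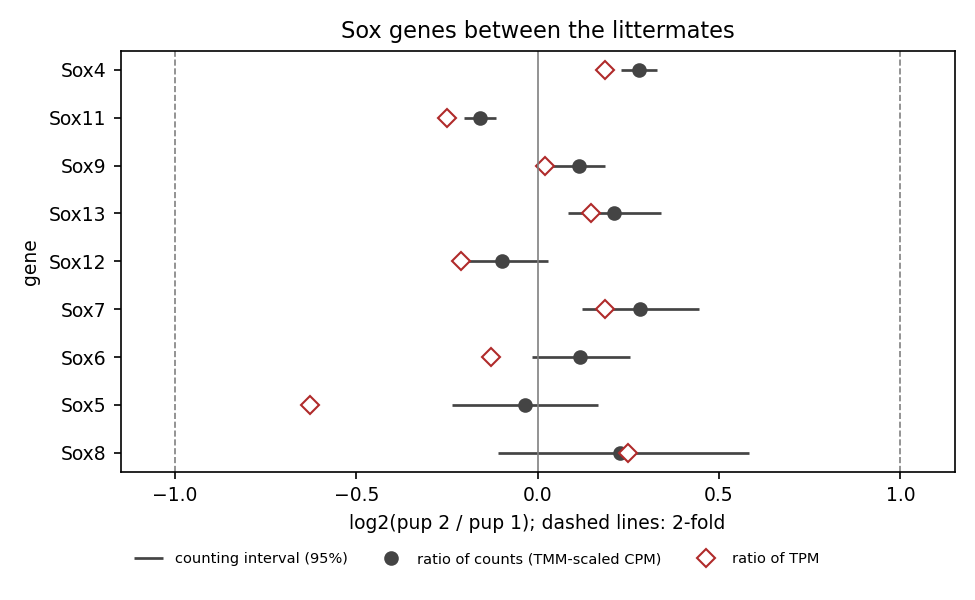
Filled points give the log2 ratio of pup 2 to pup 1 by TMM-scaled counts with lines for the counting interval (95%), diamonds give the ratio by TPM, and dashed lines mark 2-fold. All 9 Sox genes lie inside the 2-fold lines by counts, and Sox5 shows the widest distance between its values by counts (-0.03) and by TPM (-0.63).

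Other genes that work with Sox factors or mark their cells give the setting of these levels. The counts detected below stand beside 61.5% of all protein-coding genes. The TCF/LEF genes, which carry a related HMG box and act in Wnt signalling, were all detected (4 of 4, median 17.3 TPM). Tcf7l2 was highest at 44.80 and 41.96 TPM, Tcf7l1 had 20.62 and 18.98 TPM, and Tcf7 was lowest at 12.05 and 12.79 TPM. Of 3 known SoxC targets 2 were detected: Tead2, a transcription factor of the Hippo pathway, at 91.73 and 73.52 TPM, and Dcx, a gene of young neurons, at 2.22 and 1.57 TPM. The neuronal tubulin gene Tubb3 was not, at 0.19 and 0.60 TPM. Levels of a target list do not show which factor set them.

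Markers of kidney epithelium were all detected (7 of 7, summed 1333.53 and 1307.11 TPM), as the tissue label states. Markers of other tissues in which Sox genes act were low but not absent. Cartilage markers were detected for 3 of 6 (summed 22.4 and 19.2 TPM). Col2a1 was highest at 13.68 and 11.79 TPM, with Acan at 0.16 and 0.08 TPM and Matn3 near 0. Glial markers were detected for 2 of 5 (8.60 and 8.98 TPM), with Mbp highest at 6.41 and 6.46 TPM. Neuronal markers were detected for 3 of 5 (17.9 and 14.3 TPM), with Elavl4 highest at 10.16 and 6.81 TPM. For muscle it was 2 of 5 (5.46 and 5.01 TPM), with Tnnt3 highest at 2.83 and 2.74 TPM and Myod1 at 0 in both pups. For gonad it was 1 of 5 (1.56 and 1.43 TPM). Insl3 was highest at 1.08 TPM in each pup, and Dmrt1 and Hsd17b3 were at 0 in both. The part of such cells in the levels of Sox4, Sox5, Sox6, Sox8, Sox9 and Sox11 was not tested.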

How the data were processed

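The 10 members and the gene lists were chosen with earlier results of these data known. The authors quantified each library on its own from transcriptome alignments to mm10 with GENCODE M4, per the text deposited with each library. The deposited gene and transcript tables give expected counts (estimated reads, not normalized), TPM and each transcript's percent share of its gene, per the file headers. The aligner is not given in the sources used here. Identifiers without version were matched to GENCODE M21 (GRCm38, the same assembly), which named 42462 of 43346 Ensembl genes; coordinates are those of M21, and 6 of 34 member transcripts differ in length between file and M21. Promoters came from RefSeq (GRCm38.p6).

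TMM factors came from edgeR 4.0.16 (R 4.3.3) on expected counts rounded to whole numbers. The difference between pups was computed where either pup had 50 or more expected counts, and it was tested on simulated data. All 10 members were described in both pups, with every transcript at 10% or more and each overlapping gene. Of each gene list other than the cell type markers, the 2 highest and the lowest gene were named. Cell type markers were given by count detected and sum, with single genes named for some. With 2 libraries no gene was named for a like pattern. A count of 0 allows 3 counts, and intervals and floors cover counting error only. Alternatives were posterior means, other detection levels, scaling, added constants, a gap between ranges and each pup alone. A further one was TPM rescaled over Ensembl genes that are not mitochondrially encoded.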

Additional observations from a re-analysis of the deposited data

How the results depend on the processing

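No paired analysis was possible because the labels give 1 group. The count of detected members was 9 under the lower detection level of 0.5 TPM as well and 7 at 5 TPM; the count of pairs apart was 42 in the main setting and 36 when a gap of 1.5-fold between the ranges was required; and no member was past 2-fold under any scaling, constant or filter run. For single genes, Sox6 changed direction between the pups, from 0.12 by counts (interval -0.02 to 0.25) to -0.13 by TPM. Its effective length was 4797 nt in pup 1 and 5339 nt in pup 2. The median shift of -0.09 over all genes is part of that change. TPM was also rescaled over Ensembl genes that are not mitochondrially encoded, which leaves out all other features. This multiplied every member by 1.08 in pup 1 and 1.09 in pup 2. The leading transcript of Sox8 held 65.0% by posterior means in place of 76.5%. At 123 to 167 counts for Sox8 and 6 for Sox15, depth limits what can be said of both.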
